A study of Mus musculus with 4 samples.

Results

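The 8 genes described here stand under the heading of cytosolic folate cycle enzymes, namely Mthfd1, Shmt1, Tyms, Mtr, Mtrr, Aldh1l1, Fpgs and Ggh. The location of each enzyme in the cell was not examined. They were listed by name and not by any measured value, out of 20807 protein-coding autosomal genes of the GENCODE annotation. Earlier results of these data were known when the list was made. CpG methylation was measured by whole-genome bisulfite sequencing (WGBS) in the brains of 4 individual male embryos at E11.5, with 1 library per group. The groups were Tet1 knockout (KO) and wild-type (WT) embryos whose dams received excess folic acid (FA, 30 ppm), and KO and WT embryos whose dams received control FA (3 ppm). All embryos came from Tet1 heterozygous dams of the 129S6.cg Tet1<tm1Koh> strain, whose KO allele carries an inserted cassette at the ATG where Tet1 translation begins. The dams were kept on their diet for at least 4 weeks before timed mating, and both diets contained the antibiotic succinyl sulfathiazole. The embryo numbers in the titles recur in the sample list of another assay of the study, where both KO embryos are listed with a neural tube defect, both WT embryos as normal, and all 4 under different litter numbers. Genotype and embryo phenotype therefore cannot be told apart in these libraries, and neither genotype nor diet can be told apart from litter. No value has an SD or a replicate check.

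Folate carries single carbon units at different oxidation states, and the cytosolic enzymes load these units onto tetrahydrofolate, change their oxidation state and pass them on to the synthesis of purines, thymidylate and methionine. Methionine in turn feeds S-adenosylmethionine, the methyl donor of the DNA methyltransferases. FPGS and GGH set how long folate stays in a cell, SHMT1, MTHFD1 and ALDH1L1 load, interconvert and release the carbon unit, and TYMS, MTR and MTRR serve the reactions that use it. Proliferating neuroepithelium depends on this pathway for nucleotides, and disturbed folate metabolism is a known risk factor for neural tube defects. TET1 is a dioxygenase that oxidises 5-methylcytosine, and CpG island promoters, such as those of most housekeeping enzymes, are usually free of methylation.

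The libraries held 13.2 to 21.2 reads per autosomal CpG, fewest in KO at 30 ppm and most in KO at 3 ppm. Levels were taken over the 14907672 autosomal CpGs with at least 5 reads in every library, and their mean lay between 81.4% and 83.5% in the 4 libraries. The methylated share of mitochondrial CpG reads, the background of incomplete conversion, was 0.914% to 0.938%. Of the promoters of 7 neural progenitor markers, the median level was 1.49% to 2.22%, against 86.3% to 88.9% for the 7 measured promoters of 8 blood and endothelium markers and 87.6% to 91.3% for 3 germ line markers. Single promoters departed from these medians, since the progenitor list reached 48.0% (Hes5) and the blood and endothelium list went down to 2.26% (Kdr), and Fabp7 at 30 ppm and Hes5 at 3 ppm were called as higher in KO. Their part in the results was not tested. Coverage over the Tet1 gene was 0.922 to 0.959 of the autosomal mean in all 4 libraries, which does not check the genotype, since an inserted cassette removes no sequence. None of the 3502 measured CpGs of the 8 genes had at least 80% methylation in both libraries of one genotype and at most 10% in both of the other, a pattern that a sequence difference between the alleles can give and that 645 CpGs of all autosomes showed. In whole brain a level is a mean over all cells, so a share of cells with full methylation and partial methylation in every cell cannot be told apart.

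The first comparison asked what loss of Tet1 changed at the promoters of the folate cycle enzymes in each diet. The promoters of Ggh and Shmt1 were higher in KO than in WT at 30 ppm and again at 3 ppm, in 2 separate pairs of libraries. How many of all promoters were called in both diets was not counted. No promoter was lower in KO by the call rule, and the remaining 6 were not called at the annotated start in either diet. Around the start of the main coding transcript, which differs from the annotated gene start for Fpgs and Aldh1l1 by many kilobases, Fpgs was also called at 30 ppm and Aldh1l1 at 3 ppm. A promoter was called at a Benjamini-Hochberg adjusted p under 0.05 in Fisher's exact test on methylated and unmethylated reads, two-sided, if its levels also lay 10 percentage points or more apart (points below). The 2 of 8 genes stood beside 15.4% of all 19924 promoters tested at 30 ppm and 16.6% at 3 ppm, and the 3 of 8 at the main transcript start beside 15.7% and 17%. With every CpG given equal weight, only the Ggh call at 30 ppm stayed at the annotated starts. With robust z, which scales each difference by its spread over all promoters, none stayed there. The median KO minus WT difference over the 8 promoters was 8.68 points at 30 ppm and 3.03 at 3 ppm, against 3.93 and 3.31 points over all promoters. Differences were above 0 in 5 of the 8 at 30 ppm and 7 of the 8 at 3 ppm, beside 77.3% and 75.0% of all promoters. At the main transcript starts the medians of the 8 were 10.5 and 8.85 points, against 3.98 and 3.36 points over all promoters. Such a test compares 2 libraries and not 2 genotypes, because differences between embryos are no part of it.

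**Figure D1:**
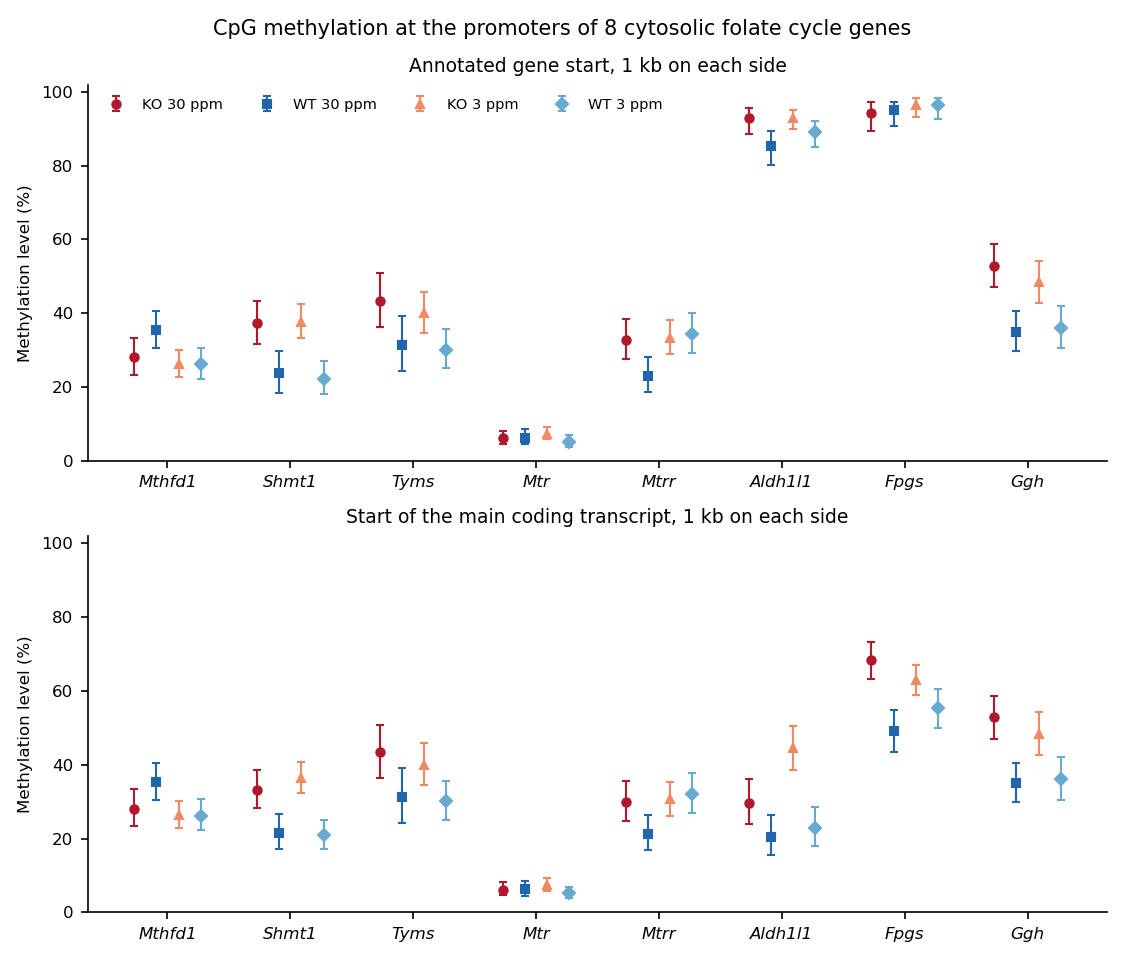
Methylation level (%) of the promoters of the 8 genes in the 4 libraries, 1 kb on each side of the annotated gene start (top) and of the main coding transcript start (bottom). Points are pooled levels of 1 library each and bars are 95% Wilson intervals for counting error only. Ggh, Shmt1, Tyms and Aldh1l1 sit higher in both KO than in both WT libraries in both panels. Mtr stays between 5.16% and 7.36%, and Fpgs and Aldh1l1 drop from over 85% at the gene start to lower levels at the main transcript start.

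Fpgs encodes folylpolyglutamate synthase, which adds the glutamate tail that keeps folate inside the cell. The gene (ENSMUSG00000009566.12) lies on chr2:32682609-32704145, minus strand. Its annotated start lies in methylated DNA, with promoter levels of 94.4% in KO against 95% in WT at 30 ppm and of 96.5% against 96.3% at 3 ppm. The start of the main coding transcript (the one with the longest coding sequence), at base 32694185, lies 9960 bases further in and inside a CpG island, so this promoter belongs to the gene body by annotation. None of the 43 CpGs within 250 bases of that start had 5 reads in every library, and its level rests on 24 CpGs farther out. There the level was 68.5% (95% Wilson interval 63.1 to 73.3) in KO against 49.1% (43.4 to 54.9) in WT at 30 ppm, and 63.1% (58.9 to 67.04) against 55.4% (49.9 to 60.6) at 3 ppm. Both KO libraries were above both WT libraries, and how many of all promoters show this order was not counted. The difference was 19.3 points at 30 ppm (95% Newcombe interval 11.49 to 26.8, adjusted p = 3.92e-05, Fisher's exact test) and was called, while the 7.71 points at 3 ppm (0.971 to 14.4, adjusted p = 0.0831) were not. With equal weight per CpG the Fpgs levels at 30 ppm were 65.2% in KO against 52.7% in WT, a smaller gap, and 74.8% of the reads in KO against 66.2% in WT lay at CpGs methylated at 50% or more. The difference between the differences of the diets, 11.6 points, did not pass a Wald test of the log odds ratios (adjusted p = 0.301).

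Ggh encodes gamma-glutamyl hydrolase, which removes the glutamate tail again and so opposes FPGS. The gene (ENSMUSG00000073987.4) spans chr4:20042052-20066750 on the plus strand, and the noncoding RNA 4930598A11Rik starts upstream at base 20041564 in the other direction. Its promoter level was 52.9% (47.0 to 58.7) in KO against 35.0% (29.8 to 40.6) in WT at 30 ppm, and 48.4% (42.7 to 54.2) against 36.1% (30.6 to 42.1) at 3 ppm. Both KO levels were above both WT levels, as in the uncalled promoters of Tyms and, at its annotated start, of Aldh1l1. KO exceeded WT by 17.9 points at 30 ppm (9.80 to 25.6, adjusted p = 0.000314) and by 12.3 points at 3 ppm (4.04 to 20.3, adjusted p = 0.0205), both by Fisher's exact test. Of the 22 CpGs, 13 were higher in KO in both diets and 2 were lower in both. At the annotated starts of the uncalled promoters these counts were 3 and 1 of 19 in Tyms, 9 and 2 of 22 in Aldh1l1, and 3 and 4 of 13 in Fpgs. They were 3 and 2 of 19 in Mtrr, 2 and 1 of 33 in Mthfd1, and 1 and 2 of 62 in Mtr. Neighbouring CpGs can lie on the same reads, and the share over all CpGs was not counted. None of the 60 CpGs within 250 bases of the Ggh start was measured in every library, so the difference rests on CpGs farther out. From 500 to 750 bases after the start the levels were 69.1% in KO against 46.8% in WT at 30 ppm and 69.6% against 48.3% at 3 ppm. In the bin before it, from 250 to 500 bases, the KO minus WT difference was 24.6 points at 30 ppm but 6.11 at 3 ppm, and upstream the 2 pairs also differed in size, with 14.7 and 4.09 points from -500 to -250 and 40.4 and 11.4 points from -750 to -500 bases. As a mean of CpG fractions instead of pooled reads, the differences of the Ggh promoter were 18.4 and 7.56 points, so the second fell under 10 points. The call at 3 ppm was also lost at 0.5 kb (5.50 points) and 2.5 kb (5.21 points) on each side, with no minimum of reads (7.77 points), with thinned libraries (10.4 points, adjusted p = 0.206, Fisher's exact test) and with robust z, which also ended the call at 30 ppm (adjusted p = 0.154).

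Shmt1 encodes the cytosolic serine hydroxymethyltransferase, which moves a carbon unit from serine to tetrahydrofolate. The gene (ENSMUSG00000020534.14) lies on chr11:60788104-60811718, minus strand, with its main transcript start 453 bases inside the annotated start. Promoter methylation was 37.3% (31.7 to 43.3) in KO against 23.7% (18.5 to 29.9) in WT at 30 ppm, and 37.8% (33.3 to 42.5) against 22.3% (18.1 to 27.1) at 3 ppm. KO was 13.6 points higher at 30 ppm (5.24 to 21.6, adjusted p = 0.0130) and 15.5 points higher at 3 ppm (8.86 to 21.8, adjusted p = 0.0001), again by Fisher's exact test, and the main transcript start gave 11.6 and 15.6 points. Of its 19 CpGs, 7 were higher in KO in both diets and none was lower in both. The 5 CpGs of this window at 50% or more in the mean of the libraries took 37.3% of the reads in KO against 31.3% in WT at 30 ppm, and 40.4% against 26.3% at 3 ppm, so coverage at methylated CpGs moved with the pooled level. When every CpG had equal weight, the differences of Shmt1 were 7.68 and 4.71 points, below the 10 points of the call rule in both diets. The call at 30 ppm was also lost at 2.5 kb on each side (5.34 points), and both calls were lost at 0.5 kb, with 15.8 points at 30 ppm and 11.0 at 3 ppm, and with robust z.

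Within the CpG island of Shmt1 the levels were 3.77% in KO against 0% in WT at 30 ppm and 1.74% against 1.35% at 3 ppm, on 10 measured CpGs of 40. Within 250 bases of the main start, 3 of 33 CpGs were measured in every library. Farther downstream, in intron 1, lies a stretch of 300 bases inside a tile of 1 kb called at 3 ppm. It has the largest KO minus WT difference at 3 ppm among the stretches of that tile with at least 4 measured CpGs and no exon. The stretches of other genes below were chosen by the same rule in the pair that called the tile, and Ggh was not searched. The Shmt1 stretch is shown for this difference, on GRCm38 chr11:60810396-60810695, minus strand, 5′ to 3′, with its 4 measured CpGs in capitals. It lies past the downstream end of the island (chr11:60810876-60811554).
Shmt1 intron 1: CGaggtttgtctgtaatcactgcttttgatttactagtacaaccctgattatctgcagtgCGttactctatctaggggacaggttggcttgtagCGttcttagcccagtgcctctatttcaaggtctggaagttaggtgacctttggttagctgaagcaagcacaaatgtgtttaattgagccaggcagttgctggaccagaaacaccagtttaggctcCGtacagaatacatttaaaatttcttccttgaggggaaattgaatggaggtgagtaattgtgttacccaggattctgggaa
The level over these bases was 32.8% in KO against 17.9% in WT at 3 ppm, the pair that chose the stretch. At 30 ppm, which took no part in the choice, it was 18.6% in KO against 17.9% in WT, a difference within counting error at 43 and 56 reads. The last CpG was at 52.2% in KO against 17.6% in WT at 3 ppm but at 0% in KO against 33.3% in WT at 30 ppm, so the direction differed between the pairs.

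Mthfd1 encodes the trifunctional cytosolic enzyme that interconverts formate, formyl, methenyl and methylene folates. The gene (ENSMUSG00000021048.7) spans chr12:76255298-76319803 on the plus strand and shares its start region with the bidirectional noncoding RNA Gm47525, which starts 36 bases inside it on the other strand. The 250 bases before its RefSeq start (GRCm38.p6 chr12:76254982-76255231, plus strand) are shown because 13 of their 15 CpGs, in capitals, were measured in every library.
Mthfd1 promoter: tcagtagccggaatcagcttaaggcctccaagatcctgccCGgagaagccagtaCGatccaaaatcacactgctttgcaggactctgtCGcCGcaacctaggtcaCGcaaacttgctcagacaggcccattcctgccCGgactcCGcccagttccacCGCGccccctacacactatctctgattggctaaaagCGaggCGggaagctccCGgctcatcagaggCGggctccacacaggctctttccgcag
These CpGs were at 0% in both libraries at 30 ppm and at 0.909% in KO against 0.730% in WT at 3 ppm, over 83 to 220 reads. No methylation above the background of incomplete conversion was measured there in any library. With 0 of 122 reads in KO and 0 of 83 in WT at 30 ppm, a count of 3 reads bounds the level at 2.46% and 3.61%. The promoter window of 1 kb on each side, which reaches methylated flanks, was at 28.1% (23.3 to 33.4) in KO against 35.4% (30.5 to 40.5) in WT at 30 ppm, and at 26.3% (22.9 to 30.1) against 26.2% (22.2 to 30.6) at 3 ppm. WT at 30 ppm was the highest of the 4, and neither the difference of -7.27 points (-14.3 to -0.0437, adjusted p = 0.157) nor that of 0.105 points (-5.50 to 5.58, adjusted p = 1) passed Fisher's exact test. In WT at 30 ppm 44.6% of the reads lay at the 9 CpGs methylated at 50% or more, against 30.5% to 31.1% in the other libraries, and as a mean of CpG fractions the difference at 30 ppm was 2.78 points, with the opposite sign.

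Downstream of the start the picture of Mthfd1 differed. From 1 to 3 kb after the start the level was 58.9% (51.5 to 65.9) in KO against 51.0% (43.1 to 58.8) in WT at 30 ppm, and 66.1% (60.3 to 71.4) against 46.1% (39.8 to 52.5) at 3 ppm. The difference of 19.98 points at 3 ppm was called (11.3 to 28.2, adjusted p = 0.000153, Fisher's exact test), and that of 7.86 points at 30 ppm was not (-2.93 to 18.4, adjusted p = 0.428). As a mean of CpG fractions the difference at 3 ppm was 9.79 points, under the 10 points of the call rule. A stretch of intron 1 is printed below, on GRCm38 chr12:76256356-76256655, plus strand, with the 4 measured CpGs in capitals. It overlaps the end of a second computed CpG island (chr12:76256064-76256448), separate from the island at the start (chr12:76254928-76255638). It was chosen by the same rule as that of Shmt1, for the largest difference at 3 ppm in a called tile.
Mthfd1 intron 1: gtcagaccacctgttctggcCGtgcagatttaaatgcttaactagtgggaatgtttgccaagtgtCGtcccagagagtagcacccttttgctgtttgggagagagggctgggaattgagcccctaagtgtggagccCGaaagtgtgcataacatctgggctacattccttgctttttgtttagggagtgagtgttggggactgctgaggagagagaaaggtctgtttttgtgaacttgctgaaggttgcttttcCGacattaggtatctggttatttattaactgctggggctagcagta
The level there was 37.3% in KO against 8.99% in WT at 3 ppm, and in the other pair 20.4% in KO against 13.04% in WT at 30 ppm. The last CpG, 1312 bases after the start, was the most methylated of the 4 in every library, at 50.0% in KO against 21.4% in WT at 30 ppm and at 66.7% against 21.7% at 3 ppm.

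Aldh1l1 encodes the cytosolic 10-formyltetrahydrofolate dehydrogenase, which releases the carbon unit as carbon dioxide and later marks radial glia and astrocytes. The gene (ENSMUSG00000030088.15) spans chr6:90486427-90600203 on the plus strand. At its annotated start, close to that of the noncoding RNA Gm45901 at base 90486393, promoter levels were 92.9% in KO against 85.3% in WT at 30 ppm and 93.0% against 89.1% at 3 ppm, and neither difference was called (adjusted p = 0.0633 and 0.225, Fisher's exact test). The main coding transcript starts 64362 bases downstream, at base 90550789, just past the end of a short CpG island (chr6:90550341-90550631). The 250 bases before this start (GRCm38.p6 chr6:90550543-90550792, plus strand) are given because they hold 3 measured CpGs of 7, in capitals, of a promoter that was not free of methylation in any library.
Aldh1l1 promoter: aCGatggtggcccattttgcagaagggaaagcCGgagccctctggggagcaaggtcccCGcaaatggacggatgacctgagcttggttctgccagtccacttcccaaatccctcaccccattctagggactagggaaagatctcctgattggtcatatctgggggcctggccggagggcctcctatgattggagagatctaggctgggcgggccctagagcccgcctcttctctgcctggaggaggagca
Those CpGs were at 12.1% in KO against 9.52% in WT at 30 ppm and at 21.4% against 12.5% at 3 ppm, over 16 to 33 reads. Over 1 kb on each side the level was 29.8% (24.1 to 36.2) in KO against 20.5% (15.6 to 26.4) in WT at 30 ppm, and 44.5% (38.6 to 50.5) against 22.8% (17.9 to 28.7) at 3 ppm. KO at 3 ppm stood above the other 3 libraries, and KO at 30 ppm was the next highest. The 21.6 points at 3 ppm (13.4 to 29.4, adjusted p = 8.8e-06) were called and the 9.30 points at 30 ppm (1.10 to 17.4, adjusted p = 0.115) were not, in Fisher's exact test. The difference of -12.3 points between the 2 differences did not pass the Wald test (adjusted p = 0.499). Of the 21 CpGs, 13 were higher in KO in both diets and 1 was lower in both.

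By the same rule, the 300 bases shown downstream of the main start of Aldh1l1 had the largest difference at 3 ppm in a called tile. They lie in intron 1, on GRCm38 chr6:90551001-90551300, plus strand. Repeat sequence makes up 21.7% of these bases and holds 1 of the 4 CpGs. Capitals mark the measured CpGs.
Aldh1l1 intron 1: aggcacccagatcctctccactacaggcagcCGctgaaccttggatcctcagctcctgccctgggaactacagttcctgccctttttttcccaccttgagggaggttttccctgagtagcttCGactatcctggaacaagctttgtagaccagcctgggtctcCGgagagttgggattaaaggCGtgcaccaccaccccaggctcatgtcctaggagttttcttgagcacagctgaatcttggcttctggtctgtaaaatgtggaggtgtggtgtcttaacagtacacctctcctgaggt
The level over these bases was 70.7% in KO against 35.0% in WT at 3 ppm. At 30 ppm it was 48.8% in KO against 24.3% in WT, and all 4 CpGs were higher in KO in both diets. The last CpG was at 92.9% in KO against 47.1% in WT at 3 ppm and at 75.0% in KO against 33.3% in WT at 30 ppm, over 8 to 17 reads.

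Upstream of the main start of Fpgs the matching stretch has a different base content. It lies on GRCm38 chr2:32694589-32694888, minus strand, at -703 to -404 bases from the main start, and was chosen for the largest difference at 30 ppm. It is given because 58.7% of its bases are soft-masked repeat sequence, with 5 of the 7 measured CpGs, in capitals, inside the repeat.
Fpgs upstream edge: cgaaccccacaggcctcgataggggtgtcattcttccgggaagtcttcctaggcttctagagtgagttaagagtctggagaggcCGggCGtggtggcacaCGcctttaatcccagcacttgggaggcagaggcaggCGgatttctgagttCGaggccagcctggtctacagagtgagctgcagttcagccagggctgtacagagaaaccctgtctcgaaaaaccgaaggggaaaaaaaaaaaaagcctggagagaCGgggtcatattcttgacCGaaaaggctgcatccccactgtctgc
The level was 75.2% in KO against 48.5% in WT at 30 ppm, and 73.3% against 71.4% at 3 ppm. WT at 30 ppm alone was low, and the 3 ppm pair, which did not choose the stretch, differed by little at 165 and 49 reads. Reads in repeats can be placed at more than 1 copy, and the part of this in the values of Fpgs and Aldh1l1 was not tested.

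**Figure D2:**
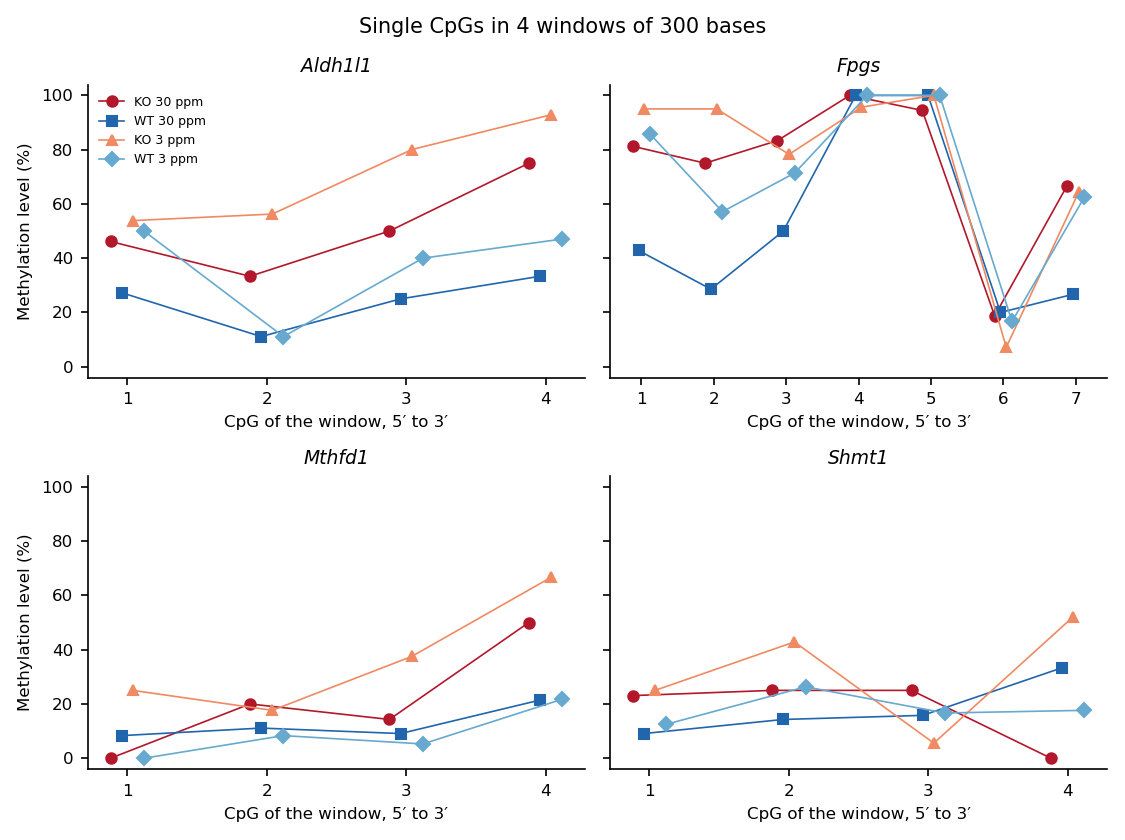
Methylation level (%) of each measured CpG in the 4 printed stretches of 300 bases, in order from 5′ to 3′, in the 4 libraries. Each point is 1 CpG in 1 library, read 6 to 28 times. In Aldh1l1 both KO libraries are above the WT library of their diet at all 4 CpGs, in Mthfd1 they are above it at the last 3 CpGs, and in Shmt1 and Fpgs the lines cross.

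Tyms encodes thymidylate synthase, which uses methylene folate to make the thymidine nucleotide. The gene (ENSMUSG00000025747.12) lies on chr5:30058202-30073617, minus strand. The 250 bases before its RefSeq start (chr5:30073626-30073875, minus strand, GRCm38.p6) are shown because only the first CpG, in capitals, of 6 was measured in every library.
Tyms promoter: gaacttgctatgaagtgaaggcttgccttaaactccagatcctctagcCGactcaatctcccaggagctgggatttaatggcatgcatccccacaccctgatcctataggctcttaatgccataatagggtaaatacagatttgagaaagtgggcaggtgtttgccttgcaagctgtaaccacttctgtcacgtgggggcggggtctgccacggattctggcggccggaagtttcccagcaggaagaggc
That CpG was at 40.0% of 10 reads in KO and 20% of 10 in WT at 30 ppm, and at 70.8% of 24 in KO against 9.09% of 11 in WT at 3 ppm. The promoter level of Tyms was 43.4% (36.3 to 50.8) in KO against 31.3% (24.4 to 39.2) in WT at 30 ppm, and 40.1% (34.6 to 45.8) against 30.1% (25.0 to 35.6) at 3 ppm. KO was above WT in both diets, by 12.1 points (1.504 to 22.3, adjusted p = 0.103) and 10 points (2.18 to 17.6, adjusted p = 0.0523), and neither passed Fisher's exact test after adjustment. The share of reads at its 5 CpGs methylated at 50% or more was 48.0% in KO against 35.4% in WT at 30 ppm, and 37.6% against 35.0% at 3 ppm. With equal weight per CpG the differences of Tyms were 1.13 points at 30 ppm and 4.88 at 3 ppm.

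Mtr encodes methionine synthase, the cobalamin enzyme that passes the methyl group of methyl folate to homocysteine. Its gene (ENSMUSG00000021311.9) lies on chr13:12182712-12258113, minus strand. The 250 bases before the RefSeq start (GRCm38.p6 chr13:12258114-12258363, minus strand) are printed as the example of an island promoter that was unmethylated in all 4 libraries, with its 9 measured CpGs of 20 in capitals.
Mtr promoter: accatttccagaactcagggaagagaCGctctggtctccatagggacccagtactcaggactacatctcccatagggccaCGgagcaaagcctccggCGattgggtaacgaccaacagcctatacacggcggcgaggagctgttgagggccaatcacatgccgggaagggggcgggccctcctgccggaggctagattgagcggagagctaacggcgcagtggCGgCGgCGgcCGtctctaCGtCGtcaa
Those CpGs were at 0% in KO against 1.82% in WT at 30 ppm and at 3.23% against 0% at 3 ppm, over 55 to 93 reads. Over 1 kb on each side, over 62 measured CpGs, the level was 6.15% (4.61 to 8.15) in KO against 6.28% (4.57 to 8.58) in WT at 30 ppm, and 7.36% (5.81 to 9.30) against 5.16% (3.80 to 6.97) at 3 ppm. The differences of -0.137 points (-2.90 to 2.497) and 2.21 points (-0.185 to 4.57) did not pass Fisher's exact test (adjusted p = 1 and 0.200).

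Mtrr encodes methionine synthase reductase, which keeps MTR active. The gene (ENSMUSG00000034617.7) lies on chr13:68560780-68582149, minus strand, and lies next to Fastkd3, a protein-coding gene that starts at base 68582234 on the other strand and with which it shares a CpG island. None of the 61 CpGs within 250 bases of its start was measured in every library. The promoter level, which rests on 19 CpGs farther out, was 32.9% (27.6 to 38.6) in KO against 23.0% (18.6 to 28.2) in WT at 30 ppm, and 33.4% (29.0 to 38.2) against 34.4% (29.2 to 40.0) at 3 ppm. WT at 30 ppm was the lowest and the other 3 libraries were close together. The difference at 30 ppm was 9.83 points (2.47 to 17.1), which passed Fisher's exact test (adjusted p = 0.0439) but not the minimum of 10 points, and at 3 ppm it was -0.937 points (-8.08 to 6.11, adjusted p = 0.923). With 0.5 kb on each side of the Mtrr start the difference at 30 ppm was -2.5 points, and with 2.5 kb it was 0.484 points.

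The 250 bases before the start were compared for letters that were not used to choose the genes. RefSeq promoters, from 250 bases before to 50 after the start, were matched for 7 of the 8 genes, all but Ggh. Their GC content was 53.0% to 69.7% and they held 9 to 37 CpGs, against medians of 52.7% and 7 over 32851 RefSeq promoters. The GC box GGGCGG, searched on both strands, was present in 7 of 7, against 35.7% of all promoters. The CCAAT box stood in all of these except that of Tyms, against 37.4% of all. An E2F motif, TTGGCGC or TTCCCGC, was found in Mthfd1 and Shmt1 (6.81% of all), and the E-box CACGTG (7.15%) and the ETS motif CCGGAAG (8.86%) in Tyms. TGACGTCA and TATAAA were in none of the 7 windows, against 1.79% and 13.6% of all. These counts describe letters in a window and not binding.

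The comparison of the diets asked what excess FA changed in each genotype. No promoter of the 8 genes was called in KO or in WT, beside 1.2% of all promoters in KO and 0.793% in WT. At the annotated starts the widest differences were both in WT, where Mthfd1 was 9.16 points higher (2.59 to 15.7, adjusted p = 0.188) and Mtrr 11.3 points lower at 30 ppm than at 3 ppm (adjusted p = 0.117, Fisher's exact test). That of Mthfd1 changed sign to -1.71 points as a mean of CpG fractions and to -10.5 points with at least 10 reads per CpG, and that of Mtrr shrank to -0.278 points at 0.5 kb and -1.98 points at 2.5 kb on each side. In KO the differences of the 8 promoters ran from -2.09 points in Fpgs to 4.45 points in Ggh, whose interval was -3.78 to 12.6. At the main transcript start of Aldh1l1, KO at 30 ppm was lower than KO at 3 ppm by 14.7 points (interval of the signed difference -23.0 to -6.01), which did not pass after adjustment (adjusted p = 0.0613). Each library entered 1 comparison of genotypes and 1 of diets, so these values share libraries with those above.

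**Figure D3:**
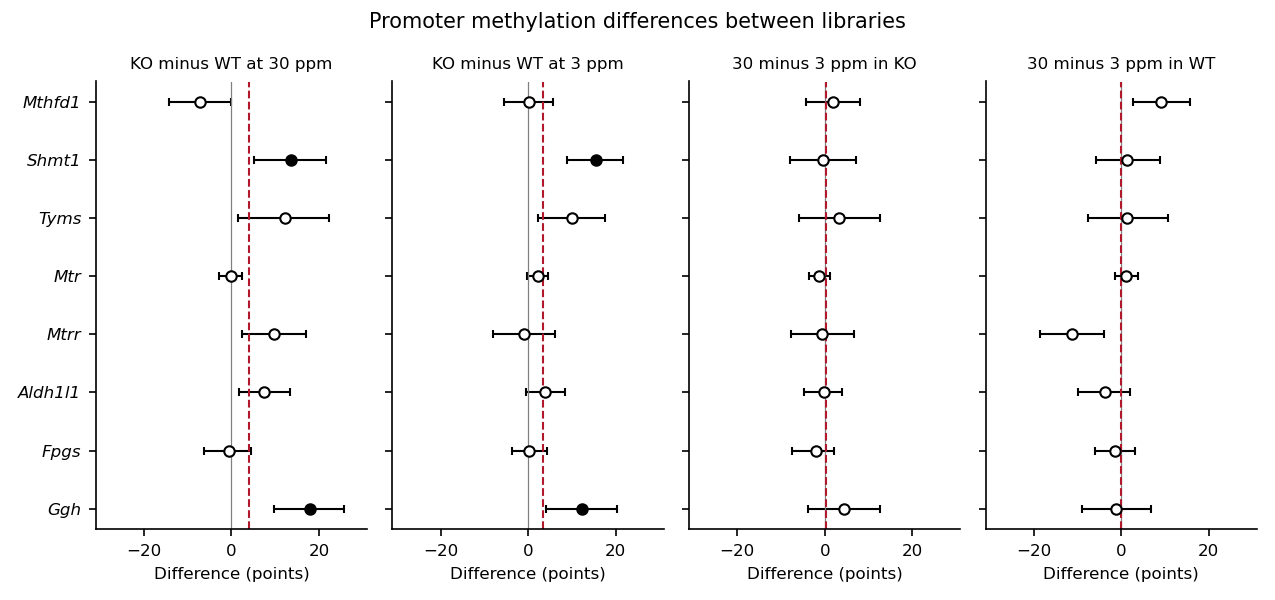
Differences of promoter methylation (points, horizontal axis) for the 8 genes in the 4 comparisons of 2 libraries, with 95% Newcombe intervals for counting error only. Filled points are called, open points are not, and the dashed red line is the median over all 19924 promoters. The 4 filled points are Shmt1 and Ggh for KO minus WT in both diets, and no point is filled for the diets.

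Whether the effect of genotype depended on diet was asked with the Wald test over all 4 libraries. None of the 8 promoters passed, beside 1.35% of all promoters. At the annotated starts the smallest adjusted p of the Wald test was 0.317 for Mtrr, with KO minus WT 10.8 points larger at 30 ppm. At the main transcript starts none passed either, and the smallest was 0.301 for Fpgs. A fit with limma over all 4 libraries, with genotype and diet as terms, is the only test here whose spread comes from libraries, on 1 residual degree of freedom. It called 0 of the 8 promoters for genotype at an adjusted p under 0.05, beside 7.5% of all promoters. At an unadjusted p under 0.05 limma gave 4 of the 8 (Shmt1, Ggh, Aldh1l1 and Tyms), beside 28.9% of all, and the smallest adjusted p was 0.0684 for Shmt1, followed by 0.0911 for Ggh. For diet limma called 0% of all promoters, and 0 of the 8 had an unadjusted p under 0.05, beside 4.69% of all.

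The flanks on either side of the start were compared next. In the upstream flanks, 1 to 3 kb before the start, levels of the 8 genes lay between 79.8% and 95.6% in all libraries, and none was called for genotype, beside 5.21% of all upstream flanks at 30 ppm and 4.56% at 3 ppm. The diets called none either (0.207% of all in KO and 0.111% in WT), nor did the Wald test (0.156% of all). For Ggh, the 80.7% in KO against 90.6% in WT at 3 ppm differed by -9.95 points (-16.4 to -3.34, adjusted p = 0.0584, Fisher's exact test), the widest value in that direction, while the pair at 30 ppm was at 83.4% and 86.3%. limma called none for genotype (1.17% of all) and none for diet (0.00504% of all). At an unadjusted p under 0.05 limma gave 1 of 8 for genotype, Ggh, beside 16.0% of all, and 0 of 8 for diet, beside 5.14%.

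In the downstream flanks, 1 to 3 kb after the start, Mthfd1 and Shmt1 were higher in KO at 3 ppm, beside 10.5% of all downstream flanks. Shmt1 was at 65.4% (59.7 to 70.7) in KO against 53.2% (47.4 to 59.0) in WT at 3 ppm, 12.1 points apart (4.00 to 20.04, adjusted p = 0.0276, Fisher's exact test). Counted from the main transcript start, the flank of Shmt1 differed by 4.85 points (adjusted p = 0.571) and was not called. At 30 ppm it was at 61.5% in KO against 55.4% in WT around the annotated start, and no downstream flank of the 8 genes was called there, beside 12.4% of all. Mtr came close at 30 ppm, with 82.0% in KO against 72.2% in WT (9.80 points, 2.69 to 17.0, adjusted p = 0.0547). The diets called none (0.401% of all in KO and 0.731% in WT), and the Wald test none (0.906%). limma called none for genotype (4.18% of all) and none for diet (0% of all). At an unadjusted p under 0.05 limma gave 2 of 8 for genotype, Mthfd1 as higher and Aldh1l1 as lower in KO, beside 22.3% of all. For diet it gave 0 of 8, beside 4.64%.

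The profile in bins of 250 bases shows where around the start these differences lie. In Mthfd1 and Mtr all libraries were already near 0% in the 250 bases before the start, in Tyms they were at 0% in the 250 bases after it, and in Aldh1l1 they did not reach 0%. In the bin 250 to 500 bases after the main start of Aldh1l1 the level was 50.0% in KO against 23.1% in WT at 30 ppm and 75.6% against 32% at 3 ppm. For Fpgs, 250 to 500 bases before the main start, it was 45.2% in KO against 26.0% in WT at 30 ppm and 37.5% against 20.9% at 3 ppm. In both bins each KO library was above each WT library, an order that was not counted over all genes.

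**Figure D4:**
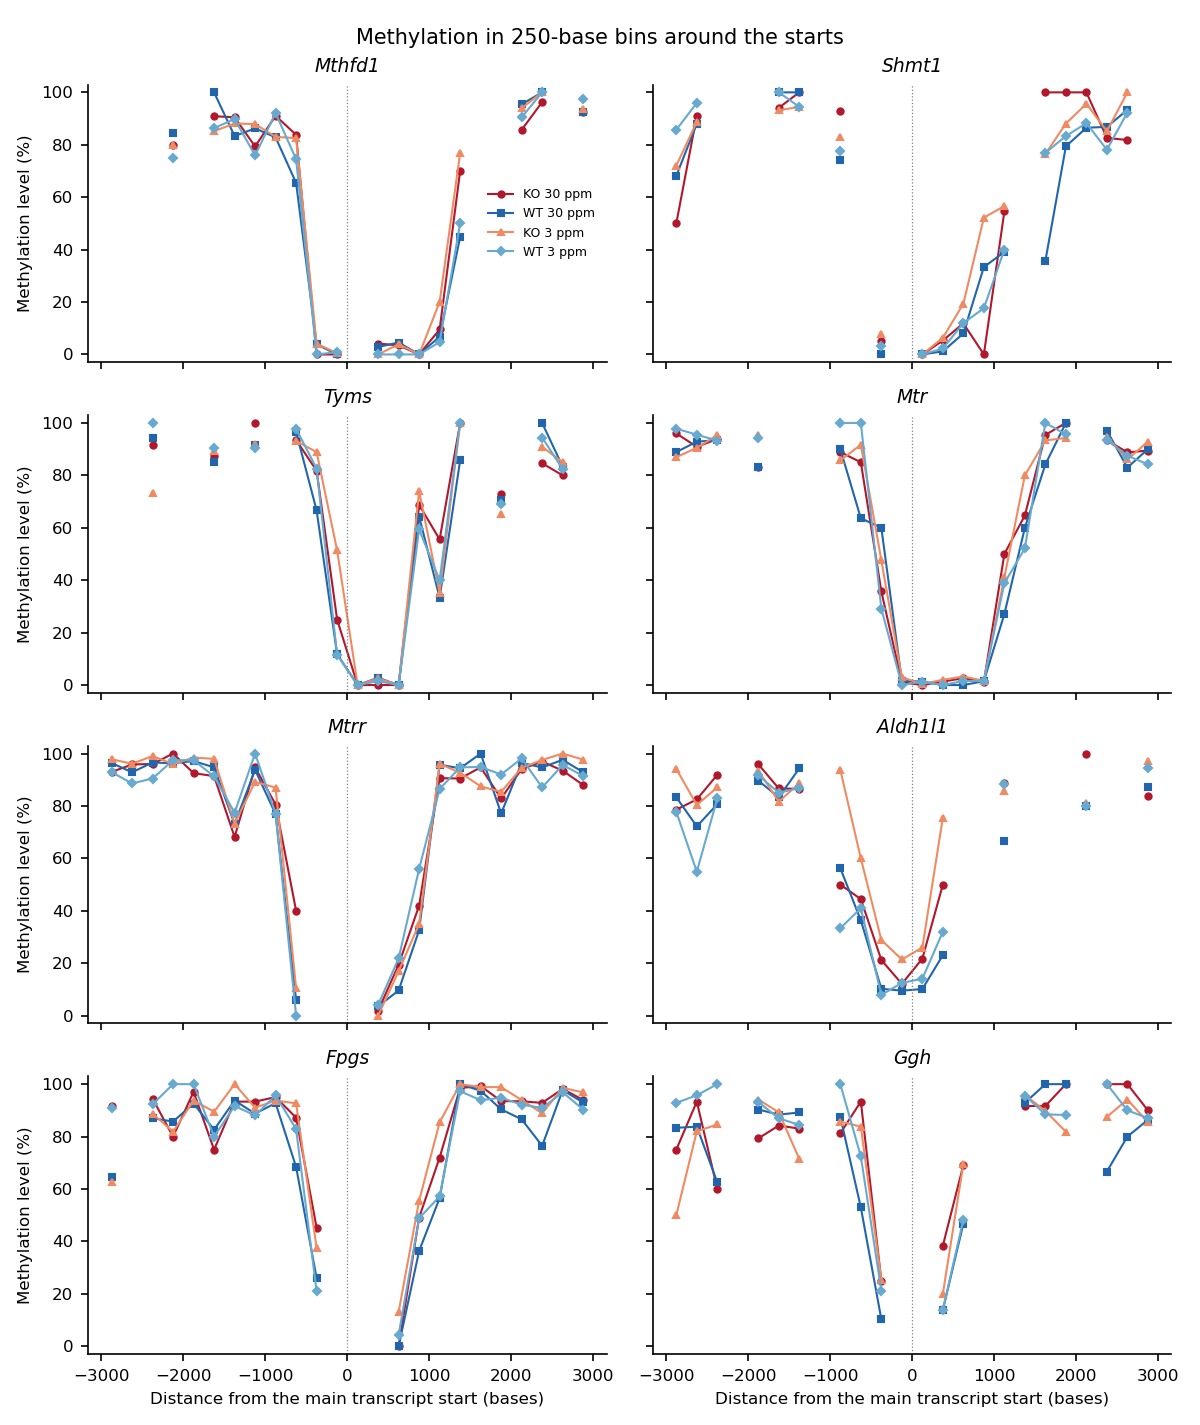
Methylation level (%) in bins of 250 bases against the distance from the main transcript start (bases, negative is upstream) for the 8 genes in the 4 libraries. Lines join neighbouring bins, and bins without a measured CpG leave gaps, which cover the start itself in Mtrr, Fpgs and Ggh. The levels fall from about the genome mean to near 0% around the start in most genes, and in Aldh1l1, Fpgs and Ggh each KO point within 500 bases of the start lies above the WT point of its diet.

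The width of the unmethylated stretch was taken in each library from the start outwards to the first of 3 CpGs in a row at 50% or more. At the annotated starts 2 of the 8 genes, Ggh and Mthfd1, had a narrower stretch in both KO than in both WT libraries, beside 29.2% of all 17743 genes with a width. At the main transcript starts 4 of the 8 did, beside 29.7% of all genes, and none was wider in both KO libraries. The stretch of Aldh1l1 was 1001 bases wide in KO against 1800 in WT at 30 ppm, and 746 against 2514 at 3 ppm. Fpgs measured 1355 bases in both KO and 1794 in both WT libraries. Ggh was 1123 bases wide in both KO libraries, 2093 in WT at 30 ppm and 1145 in WT at 3 ppm, so at 3 ppm KO and WT were close. Mthfd1 had 1840 bases in both KO libraries, 2049 in WT at 30 ppm and 1980 in WT at 3 ppm. Shmt1 was narrower in KO at 30 ppm only, with 1853 against 2589 bases, and equal at 1979 bases at 3 ppm. A width ends on a single CpG position and carries no interval, and it was not tested.

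**Figure D5:**
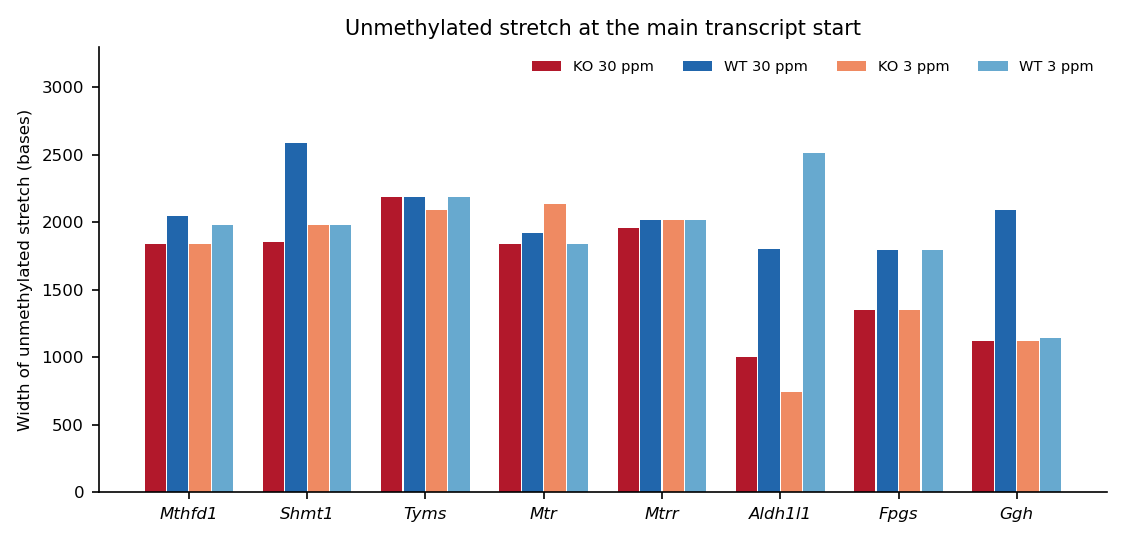
Width (bases) of the unmethylated stretch around the main transcript start of the 8 genes, 1 bar per library. Aldh1l1, Fpgs, Ggh and Mthfd1 have shorter bars in both KO than in both WT libraries, Aldh1l1 by the most (746 to 1001 against 1800 to 2514 bases), and Tyms, Mtr and Mtrr show no such order.

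The gene bodies, from 1 kb after the annotated start to the gene end, were methylated at 80.2% to 92.4% in all libraries. No gene body reached 10 points for genotype, beside 3.07% of all gene bodies at 30 ppm and 2.72% at 3 ppm, or for diet, beside 0.138% in KO against 0.307% in WT. Without a minimum difference, 4 of the 8 were higher in KO at 30 ppm (44.6% of all) and 1 at 3 ppm (26.1% of all). At 30 ppm Fpgs was at 89.4% in KO against 85.4% in WT, a difference of 4.00 points (adjusted p = 1.84e-05, Fisher's exact test). Aldh1l1 differed by 3.70 points, Shmt1 by 3.67 points and Mtr by 1.09 points in the same direction. The body of Aldh1l1, which includes its island promoter, was at 84.7% in KO against 81.0% in WT at 30 ppm and at 84.5% against 83.0% at 3 ppm. Here WT at 30 ppm was the lowest, and the difference between the diets in WT was -2.02 points (-3.07 to -0.968, adjusted p = 0.00424), the only one of the 8 for diet at this rule in WT (10.1% of all), with none in KO (7.32% of all). For Aldh1l1 the genotype difference was also larger at 30 ppm than at 3 ppm by 2.19 points in the Wald test (adjusted p = 0.0333), the only one of the 8, beside 15.1% of all gene bodies, and this call was lost with no minimum of reads. limma called 0 of the 8 bodies for genotype (6.95% of all) and 0 for diet (0.0358% of all). At an unadjusted p under 0.05 limma gave 0 of 8 for genotype, beside 23.9% of all, and 0 of 8 for diet, beside 4.71%. Mean autosomal methylation in WT at 30 ppm was also the lowest of the 4 libraries, at 81.4%, and its part in these small differences was not tested.

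Tiles of 1 kb were used to look for differences inside the genes that the fixed regions average out. From 3 kb before the annotated starts to the gene ends there were 354 tiles with at least 3 measured CpGs. At 30 ppm 5 of them were higher in KO, beside 1.13% of all 1863069 tiles, and at 3 ppm 3 were higher, beside 1.1%, and 1 was lower, beside 0.114%. Between diets none was called in KO (0.0683% of all) or WT (0.047% of all), nor by the Wald test (0.0692% of all). limma called 0 tiles anywhere in the genome for genotype and 0 for diet, while 38 and 15 of the 354 had an unadjusted p under 0.05, beside 7.75% and 4.89% of all tiles. No tile of the 8 genes was called in both diets, and the share of all tiles called in both was not counted.

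The tile with the smallest adjusted p lay over exon 1 and the upstream edge of Fpgs (chr2:32694001-32695000), at 72.9% in KO against 45.8% in WT at 30 ppm (27.0 points, adjusted p = 5.74e-05, Fisher's exact test), and at 61.6% and 50.6% at 3 ppm. As a mean of CpG fractions this Fpgs tile differed by 16.5 points at 30 ppm. Its call was lost with at least 10 reads per CpG, where the difference was 26.5 points (adjusted p = 0.215, Fisher's exact test). Over the start, exon 1 and intron 1 of Ggh (chr4:20042001-20043000) the level was 56.8% in KO against 36.3% in WT at 30 ppm (20.6 points, adjusted p = 0.0139), and 49.3% in KO against 29.5% in WT at 3 ppm (19.7 points, adjusted p = 0.0709). Pooled over this tile the 2 pairs of libraries gave nearly the same size. In its bin from 500 to 750 bases after the start they did so too, with 22.3 points at 30 ppm and 21.3 at 3 ppm. In its bin from 250 to 500 bases they did not, and the difference was 24.6 points at 30 ppm and 6.11 at 3 ppm. In intron 1 of Shmt1 (chr11:60809001-60810000) KO at 30 ppm was at 100% of 56 reads against 75.3% in WT (adjusted p = 0.00276), and the pair at 3 ppm was at 89.5% and 84.2%.

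A pair of tiles lay far upstream of the main start of Aldh1l1, within the annotated gene. The first (chr6:90515001-90516000) was at 78.6% in KO against 54.5% in WT at 30 ppm (adjusted p = 0.00344) and at 74.5% and 68.4% at 3 ppm. The second (chr6:90538001-90539000) was at 64.2% in KO against 43.0% in WT at 30 ppm (adjusted p = 0.0083, Fisher's exact test) and at 57.7% and 50.0% at 3 ppm, and its 21.2 points became 5.91 points as a mean of CpG fractions. In both, WT at 30 ppm was the lowest library and KO the higher one in each diet.

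At 3 ppm the tile just inside Aldh1l1 (chr6:90551001-90552000, intron 1) was at 74.7% in KO against 46.8% in WT (27.9 points, adjusted p = 0.0425), with 55.8% and 36.5% at 30 ppm. In Mthfd1 (chr12:76256001-76257000, intron 1) it was at 34.7% in KO against 15.2% in WT (19.5 points, adjusted p = 0.00712), with 26.5% and 16.8% at 30 ppm. The tile over exon 1 and intron 1 of Shmt1 (chr11:60810001-60811000) was at 23.6% in KO against 11.8% in WT (11.8 points, adjusted p = 0.0152), with 15.3% and 13.9% at 30 ppm. The 1 tile lower in KO lay upstream of Ggh (chr4:20039001-20040000) and rested on 4 CpGs, at 74.1% in KO against 95.6% in WT at 3 ppm (-21.5 points, adjusted p = 0.0291, Fisher's exact test), but at 86.0% and 80.7% at 30 ppm, where the direction was the other one. With thinned libraries the tile of Mthfd1 (15.6 points, adjusted p = 0.317), the lower tile of Ggh (-15.4 points, adjusted p = 0.511) and the Shmt1 tile called at 3 ppm (12.7 points, adjusted p = 0.0684) lost their calls, and the Ggh tile over the start did with no minimum of reads (13.8 points, adjusted p = 0.124). With at least 10 reads per CpG the pair of upstream tiles of Aldh1l1 (29.4 points, adjusted p = 0.0933, and 16.3 points, adjusted p = 0.2, Fisher's exact test) and the Shmt1 tile called at 30 ppm (16.9 points, adjusted p = 0.119) lost theirs, like that of Fpgs, and the lower Ggh tile and the tile just inside Aldh1l1 had no value. With robust z every called tile but that of Fpgs lost its call.

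Other genes of folate and nucleotide metabolism, 21 in a fixed list, were read in the same fits. Their promoters were higher in KO for 5 genes at 30 ppm (Aldh1l2, Amt, Dut, Gcsh and Tk1), of which Aldh1l2, Amt and Gcsh were called at 3 ppm as well, and none was lower. Of all promoters 15.4% and 16.6% were called higher in KO. The median difference was 3.09 and 3.78 points. Gcsh, a subunit of the mitochondrial glycine cleavage system, was at 27.0% in KO against 11.2% in WT at 30 ppm and at 29.6% against 11.6% at 3 ppm. Aldh1l2, the mitochondrial counterpart of Aldh1l1, was at 63.4% in KO against 38.6% in WT at 30 ppm and at 58.8% and 48.4% at 3 ppm. The upstream flank of Dctd, the dCMP deaminase, was at 64.1% in KO against 35.5% in WT at 30 ppm and at 58.2% and 39.9% at 3 ppm, and the downstream flank of Rrm2, a subunit of ribonucleotide reductase, at 43.7% and 24.7% and at 44.5% and 32.8%. All these genotype differences were called in both diets. Of the 21 genes, 1 upstream flank was called in each diet, beside 5.21% of all at 30 ppm and 4.56% at 3 ppm. Downstream flanks were called for 3 genes at 30 ppm and 2 at 3 ppm, beside 12.4% and 10.5% of all. Those of Gcsh and Paics were called at 30 ppm only and that of Rrm1 at 3 ppm only. The promoter of Dut, the dUTP diphosphatase, was the only one of the 21 called between diets, at 44.8% in KO at 30 ppm and 28.7% in KO at 3 ppm (adjusted p = 0.0186, Fisher's exact test), with 29.3% and 31.5% in WT, beside 1.2% of all promoters called in KO and 0.793% in WT.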

How the data were processed

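WGBS libraries of 4 embryonic brains were analysed, 1 per group, with genotype and diet taken from the labels. Per the submitters' processing notes and the study's methods, the authors trimmed reads with Trim Galore (0.6.10), aligned them with Bismark (0.23.1) to mm10 (GRCm38.p6), removed duplicates and merged both strands at every CpG. In the deposited tables stand the fraction of methylated reads per CpG and the count of reads, not normalised. Fraction times count was whole to within 4.37e-11 and gave methylated reads. Positions, deposited 0-based, are printed 1-based.

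A CpG needed 5 reads in every library and a feature 3 such CpGs, and reads were summed per feature. A read counts once at each CpG it covers, so intervals and p-values treat dependent counts as independent. Depth, 13.2 to 21.2 reads per CpG, limits single CpGs most. Fisher's exact test compared 2 libraries, a Wald test (0.5 added to each count) the difference between diets, and limma (3.58.1, R 4.3.3) log2((methylated + 1)/(unmethylated + 1)) for genotype and diet. p-values were adjusted over all features of a class. Scripts ran in Python 3.11.15 and were tested on simulated data. The main transcript is the coding transcript with the longest coding sequence. Islands were computed from the sequence (over 200 bases, GC at least 50%, observed over expected CpG above 0.6). Lists of regions that the authors called with DSS were read for overlap only, and 4 of the deposited lists were not used. RefSeq promoters are on GRCm38.p6.

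The 8 genes, the list of 21 other genes and the markers were chosen with earlier results of these data known. All 8 genes and every called tile are named, and of the other 21 the 5 with the largest called differences, plus genes named because a count was 5 or fewer, which were picked after their values were seen. Alternatives tried were other read minimums, thinning, dropping CpGs that look like sequence differences, CpG fractions, robust z, other windows, tile grids, start sites and pseudocounts. One result of the wider list is not reported here.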

Additional observations from a re-analysis of the deposited data

Results flagged for a closer look

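In 3 flagged results, of which 1 is a count of 5 gene bodies, the KO minus WT difference itself differed between the diets by the Wald test. That test has no minimum difference. In the body of Aldh1l1 KO minus WT was larger at 30 ppm than at 3 ppm by 2.19 points (adjusted p = 0.0333), with WT at 30 ppm as the lowest of the 4 libraries, and the call was lost with no minimum of reads. The promoter of Aldh1l2, a gene of the wider folate list, had a KO minus WT difference that was 14.5 points larger at 30 ppm (adjusted p = 0.0191), with WT at 38.6% at 30 ppm and 48.4% at 3 ppm. It was 1 of 21 listed promoters, beside 1.35% of all promoters that passed. Among the 21 other folate and nucleotide genes, 5 gene bodies (Dctd, Gcsh, Gldc, Mthfd1l and Mthfd2l) passed the same test, beside 15.1% of all gene bodies. With 1 library per group no set of 4 or more samples existed in which a single library could be tested as standing apart.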

How the results depend on the processing

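Dropping CpGs that look like sequence differences removed none in the 8 genes and is left out of the tallies here. Of 213 counts of called genes, tiles and widths under the other alternatives, 185 stayed within 1.5 times the reported count. A count that was 0 and stayed 0 is included as having stayed, so these tallies say little about the stability of the calls. These counts did not record direction, and all 30 of limma's stayed at 0. With the dropped CpGs included as a setting, 35 of 44 counts stayed for KO minus WT at 30 ppm and 30 of 44 at 3 ppm. Among these, upstream flanks and gene bodies had 0 reported calls in both diets, and downstream flanks had 0 at 30 ppm. For diet, where every reported count was 0, 44 of 44 stayed in KO and 42 of 44 in WT. For promoters, KO minus WT at 30 ppm (2 called) became 0 with robust z and 1 with mean CpG fractions (Ggh), 0.5 kb (Ggh) or 2.5 kb (Ggh) on each side. At 3 ppm (2 called) it became 0 with robust z or mean CpG fractions and 1 with no minimum of reads (Shmt1), thinning to the shallowest library (Shmt1) or 0.5 kb (Tyms), while 2.5 kb kept 2 calls with Tyms in place of Ggh. For diet in WT (0 called) no minimum of reads gave 1 (Mthfd1). Downstream flanks at 30 ppm (0 called) became 1 when thinned (Mtr), and at 3 ppm (2 called) 0 with robust z or mean CpG fractions and 1 when thinned or at the main transcript start (Mthfd1 in both). Gene bodies with no minimum difference gave 4 at 30 ppm, 1 at 3 ppm and 1 for diet in WT, and the Wald call of Aldh1l1 became 0 with no minimum of reads. Tiles at 30 ppm (5 called) became 2 with 10 reads per CpG, 1 with robust z (Fpgs) and 3 on a grid shifted by 500 bases; at 3 ppm (4 called) they became 2 with 10 reads or 500-base tiles, 1 when thinned and 0 with robust z. Stretch widths narrower in KO (2 genes) became 5 at a level of 30% (29.6% of all genes) and 4 at the main transcript start (6 at 30%, beside 30.1% of all). Widths at that start were added after seeing the data, while promoters at that start were not. The cause of these moves was not tested. Of 41 values of single called promoters or flanks under alternatives that could change them, 21 kept their call and 20 lost it, and 43 of 186 uncalled promoter values changed sign. The Fpgs tile held in 4 of 5 settings and no other called tile in more than 3. No paired analysis was possible because each group has 1 library, which also leaves no replicate to leave out. Depth limits the island starts of Ggh, Mtrr and Fpgs, where 0 CpGs within 250 bases were measured in every library. It also limits the main start of Shmt1, where 3 of the 33 CpGs within 250 bases were.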

Other observations

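The region lists that the authors deposited, 8 of which were read, held 0 regions within the 8 genes or 3 kb on either side. Of all protein-coding autosomal genes 12.6% held a region hypermethylated in KO at 30 ppm and 13.1% one at 3 ppm, and 0.0817% to 0.384% held one of any other list. For KO minus WT at 30 ppm, 4 of the 4436 hypermethylated regions lay in other folate and nucleotide genes (Dctd, Gcsh, Ftcd and Aldh1l2), and at 3 ppm 3 of 4437 (Dctd, Ftcd and Aldh1l2).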
